A study of Mus musculus with 16 samples.

Results

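The genes described here are targets of activating transcription factor 4 (ATF4) that respond to amino acid shortage, together with Atf4 itself, measured in mouse ileum with and without hepatocyte deletion of Bcl6. They were chosen by name from a list of 35 genes, and 34 of these were found by symbol among the 24940 genes of the count table. The listed Mars1 was absent under that symbol, and the row Mars, whose RefSeq accession belongs to Mars1, was kept outside all counts of members. The list was drawn up with earlier results of the genotype comparisons in these libraries known, so the values for the genotype effect describe the members and do not serve as independent evidence for them.

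RNA sequencing was performed on poly(A) RNA from a piece of terminal ileum of C57BL/6 mice, with 4 libraries for each sex of the WT and LKO genotypes. WT mice were Bcl6 fl/fl, which carry loxP-flanked Bcl6 alleles and no Cre, and LKO mice were Alb-cre, Bcl6 fl/fl, in which the albumin promoter drives Cre in hepatocytes. All 4 groups thus shared the floxed alleles, and the WT mice did not control for Cre alone. Ileal cells were not the target of the deletion, so the comparison asked whether loss of hepatic Bcl6 was accompanied by a difference in the gut. Age was not given in the sources used here. The paper's methods give mice as fed freely or fasted for 4 hours, and do not say which held for the ileum libraries. The title of each library carries a number of its own. The paper's legends for the ileum sequencing give a group size that matches the libraries per group here. These legends do not say in words that replicates were separate animals. All 4 male WT title numbers were lower than the male LKO title numbers. The order of the title numbers and genotype therefore cannot be told apart in males.

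ATF4 is the main transcription factor of the integrated stress response. When amino acids run short, misfolded proteins accumulate in the endoplasmic reticulum or mitochondria fail, kinases such as GCN2 and PERK phosphorylate the initiation factor eIF2alpha, general translation slows, and the Atf4 mRNA is translated more efficiently, so that ATF4 protein can change without a change in its mRNA. ATF4 then pairs with C/EBP proteins on C/EBP-ATF response elements and raises transcription of amino acid transporters, biosynthetic enzymes, tRNA synthetases and regulators that end or redirect the response. In the intestine, the epithelium renews continuously and takes up dietary amino acids, so it uses many of these genes at rest.

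The C/EBP-ATF element has the core TGATGNAA, which was searched on both strands in RefSeq promoter windows of GRCm38.p6, each reaching from 250 bases before to 50 bases after an annotated start. Windows were at hand for 26 of the 34 members, in 29 promoters, and 13 of these (44.8%) held the core, against 1304 of all 32851 promoters in the table (3.97%). The members with the core were Aars, Asns, Chac1, Fgf21, Gars, Iars, Nupr1, Pycr1, Slc7a11, Tars, Trib3, Vldlr and Yars. Slc7a5, Slc7a3, Cars, Wars, Nars, Lars, Cth and Eif4ebp1 were not searched. The 8 sequences that follow belong to the members with the core that had an unadjusted p below 0.05 in a genotype comparison below, and they are shown 5′ to 3′ on the strand of the gene with the core in capitals, which appears as its reverse complement where it lies on the opposite strand. Positions are counted from the annotated start and are negative before it.
Asns (chr6:7693210-7693258, - strand, motif beginning at -23): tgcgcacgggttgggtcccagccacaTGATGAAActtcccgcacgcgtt
Chac1 (chr2:119351023-119351082, + strand, motif beginning at -193): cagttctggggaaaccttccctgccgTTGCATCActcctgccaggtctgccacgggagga
Pycr1 (chr11:120643818-120643877, - strand, motif beginning at -103): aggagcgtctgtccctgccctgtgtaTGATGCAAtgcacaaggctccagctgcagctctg
Nupr1 (chr7:126625547-126625606, - strand, motif beginning at -110): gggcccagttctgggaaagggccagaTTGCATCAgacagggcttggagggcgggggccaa
Aars (chr8:111033704-111033763, + strand, motif beginning at -112): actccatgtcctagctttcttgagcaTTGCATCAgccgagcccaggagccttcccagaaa
Gars (chr6:55037945-55038000, + strand, motif beginning at -30): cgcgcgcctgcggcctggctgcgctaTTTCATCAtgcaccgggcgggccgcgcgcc
Tars (chr15:11399659-11399699, - strand, motif beginning at -15): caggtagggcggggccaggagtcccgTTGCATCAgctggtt
Yars (chr4:129189895-129189924, + strand, motif beginning at 4): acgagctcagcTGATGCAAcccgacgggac
The first motif base lay before the start in 7 of the 8 windows shown and within the transcribed part in Yars. In Aars, a second match lay 10 bases after the start. These matches describe letters in the promoters and not binding by ATF4, which was not measured.

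**Figure D1:**
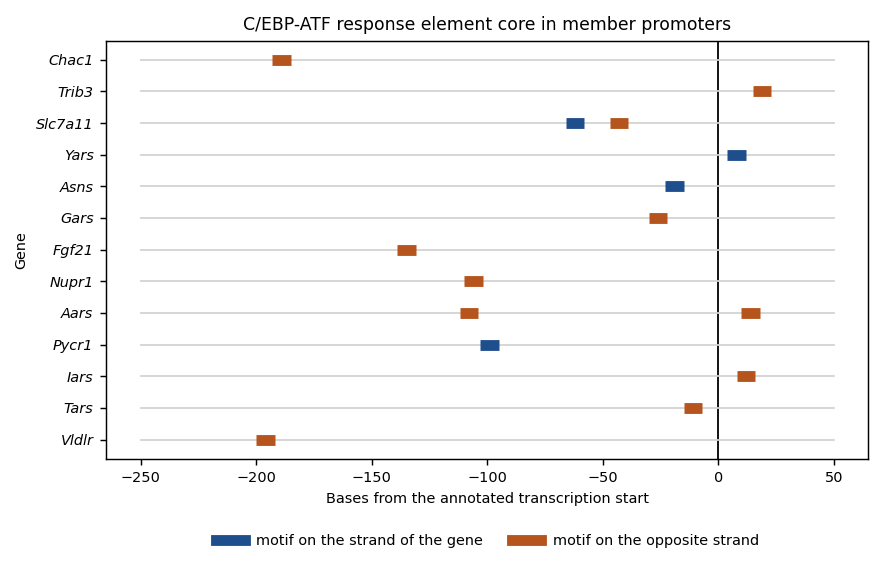
Position of the C/EBP-ATF response element core in the promoter windows of the 13 members that hold it. The x axis gives bases from the annotated start (vertical line), grey lines the window searched, blue bars a core on the strand of the gene and orange bars one on the opposite strand. Slc7a11 and Aars each have 2 matches, and the others have 1.

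A different element, the core TGACNNNGC of the antioxidant response element, was present in 7 of the 29 member promoters (24.1%) and in 4071 of all 32851 (12.4%). Its carriers were Aars, Asns, Iars, Ppp1r15a, Sesn2, Slc7a1 and Stc2. Aars, Asns and Iars therefore held both cores. Slc7a11, the cystine transporter that NRF2 also controls, held the C/EBP-ATF core only.

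Levels within the ileum were compared per length, as reads per kilobase of exon per 1 M reads (RPKM), averaged over the 16 libraries. Atf4 itself was the highest member at 140 RPKM, with a range of 119 to 169 over the libraries. It was followed by Nars at 121 RPKM and by Nupr1, a stress-induced chromatin protein, at 84.5 RPKM. Slc3a2, the heavy chain shared by several amino acid exchangers, stood at 68.6 RPKM and Wars at 67.1 RPKM. At the low end were Trib3 at 1.56 RPKM, Vldlr at 1.02 RPKM, Slc7a3 at 0.26 RPKM and Slc7a11 at 0.24 RPKM. Fgf21, the hormone that ATF4 induces in stressed liver and muscle, had at most 3 counts in a library and 0 in 11 of the 16, which allows a level in those of up to 0.147 to 0.191 counts per 1 M counts (CPM), and the filter left it out of the tests. After the filter on low counts, 32 members were tested in males and 33 in each other comparison, Slc7a3 being the one left out in males. Ddit3 shares 68 bases with Mars, Yars 30 with C77080 and Ppp1r15a 11 with Tulp2 on the opposite strand, and Cars holds 89 bases of Mir7064 on its own strand.

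The libraries held 15.7 to 20.5 M counts in 15 cases and 60.3 M in female LKO replicate 1, whose values are the most precise. Markers of ileal enterocytes, among them the bile acid carrier Fabp6, summed to between 7990 and 11300 CPM, a check of the labelled tissue. The pieces differed in other cells: 8 markers of B-cell follicles summed to 132 CPM in male WT replicate 2, 80.9 in female WT replicate 3, 219 and 418 in female LKO replicates 2 and 3, and 22.6 to 34.4 in the other libraries. In whole tissue, fewer cells of a type and less RNA per cell cannot be told apart.

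In females, LKO ileum had more mRNA of asparagine synthetase, of several cytosolic tRNA synthetases and of the regulators Atf5 and Eif4ebp1, while Atf4 mRNA was level. No member passed edgeR's adjusted p of 0.05, against 6 of all 15298 genes (0.0392%), but 11 of 33 members had an unadjusted p below 0.05 and a higher value in LKO, where 4.95% of all genes did. They were Cars, Asns, Aars, Atf5, Eif4ebp1, Gars, Sars, Yars, Slc7a5, Tars and Nars. DESeq2 called the first 7 of these at its adjusted p, against 155 of all 15298 genes. A single member, Cth, had such a p in the lower direction (3.03% of members), where 6.75% of all genes did. In 11 members every LKO library lay above every WT library, against 3.04% of all genes, and in 1, again Cth, every LKO library lay below, against 3.27%. The median log2 fold change was 0.16 over the members, 27 of 33 being above 0, and 0.01 over all genes tested.

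Asns makes asparagine from aspartate and glutamine and is among the best known ATF4 targets (mm10, chr6:7675171-7693182). In females it stood at 48.3, 54.4, 44.3 and 46.9 CPM in WT replicates 1 to 4 and at 80.4, 71.0, 61.9 and 67.1 CPM in LKO. The groups did not overlap, and the log2 fold change was 0.54 ± 0.087 (edgeR adjusted p 0.0555), about 1.45-fold, where ± stands for the SE of the fit here and below. In males it stood at 50.4, 45.5, 50.6 and 60.9 CPM in WT and at 58.9, 52.9, 70.4 and 67.8 CPM in LKO. These groups overlapped, and the log2 fold change was 0.28 ± 0.10 (edgeR adjusted p 0.828). Over both sexes, with sex as a covariate, Asns rose by 0.40 on the log2 scale ± 0.078 (edgeR adjusted p 0.0344), the one member of 33 that passed, against 0.269% of all genes. That call depended on single libraries: it held without male WT replicate 3 or 4, male LKO replicate 1 or 2 or female WT replicate 2 and was lost without any of the other 11 libraries, with adjusted p between 0.00502 and 0.085. It was also lost with the title number as a covariate (0.17) or as sets of neighbouring numbers (0.359), and without the 4 libraries rich in follicle RNA (0.249), while the log2 fold change stayed between 0.35 and 0.45.

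**Figure D2:**
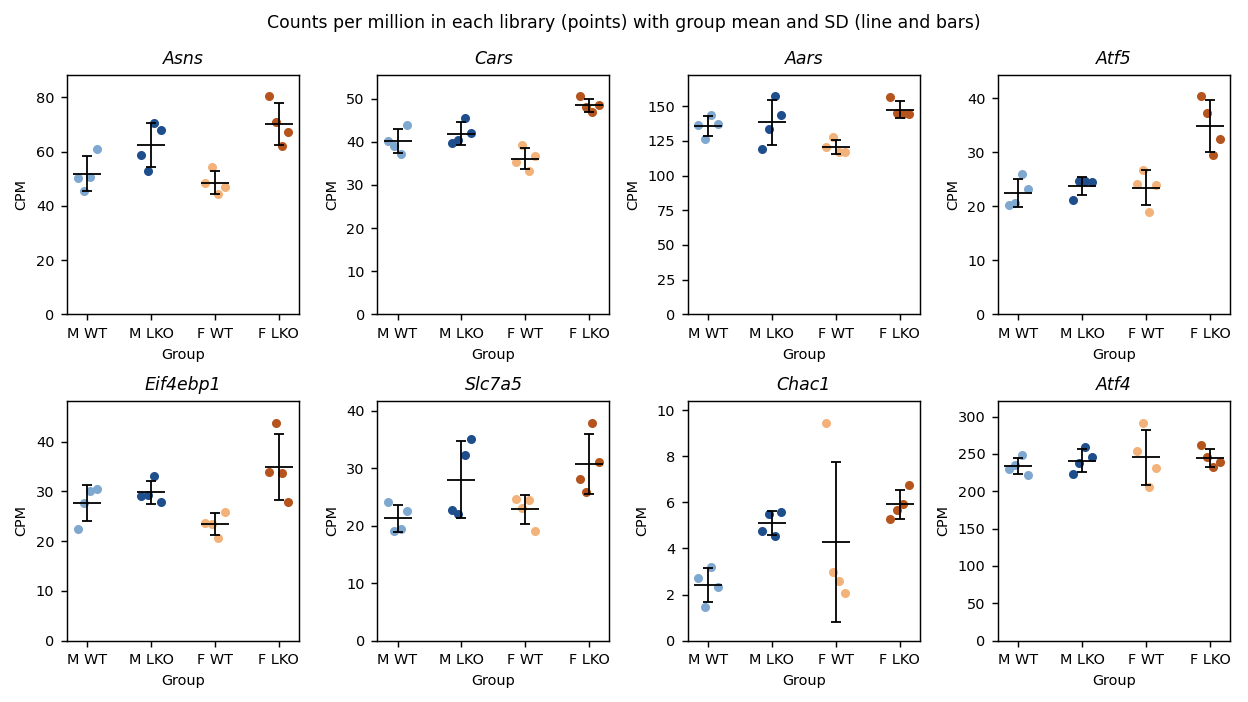
Level of 8 members in CPM (y axis, from 0) in each library, by group (M, male; F, female; 4 libraries each), with the group mean as a line and the SD as bars. Female LKO libraries lay above all female WT libraries for Asns, Cars, Aars, Atf5, Eif4ebp1 and Slc7a5, male LKO above male WT for Chac1, and Atf4 overlapped in both sexes; female WT replicate 1 stood apart for Chac1 at 9.47 CPM.

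Among the other enzymes, Chac1 (chr2:119351242-119354327), which breaks down glutathione, had the largest log2 fold change of any member in males. It stood at 2.73, 1.47, 3.20 and 2.31 CPM in male WT and at 4.78, 5.50, 4.56 and 5.59 CPM in male LKO. The male groups did not overlap, and the log2 fold change was 1.07 ± 0.21 (edgeR adjusted p 0.0848). In female LKO it stood at 5.28, 5.68, 5.95 and 6.75 CPM, but female WT held 9.47 CPM in replicate 1 beside 2.97, 2.58 and 2.08 CPM, and the log2 fold change was 0.47 ± 0.46 (edgeR adjusted p 0.71). Over both sexes Chac1 had a log2 fold change of 0.75 (edgeR adjusted p 0.277), and without female WT replicate 1 one of 1.14 (edgeR adjusted p 0.000873). That library also had the highest sum of 5 colon and cecum markers among females, 1070 CPM against 106 to 386 CPM in the other females. Male LKO replicate 2 had a higher sum, 1320 CPM, with Chac1 within its group at 5.50 CPM, and male WT replicate 4 had 641 CPM with Chac1 at 2.31 CPM. The part of colon and cecum cells in the Chac1 values was not tested.

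Pycr1, which completes proline synthesis, stood at 9.44, 11.3, 11.2 and 10.3 CPM in male WT and at 11.6, 15.9, 11.7 and 12.9 CPM in male LKO. The male groups were just separate, with a log2 fold change of 0.31 ± 0.12 (edgeR adjusted p 0.876), and in females it was 0.14 ± 0.11. Cth, which makes cysteine from cystathionine, was the exception in direction. It stood at 76.3, 73.9, 76.3 and 85.8 CPM in female WT and at 72.1, 64.7, 63.5 and 71.4 CPM in female LKO, without overlap, a log2 fold change of -0.20 ± 0.068 (edgeR adjusted p 0.318). In males its groups overlapped, with a log2 fold change of -0.05 ± 0.091. Gpt2, the mitochondrial alanine transaminase, had log2 fold changes of -0.24 ± 0.13 in males and 0.16 ± 0.10 in females, with overlap in both.

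Of the 11 tRNA synthetases in the list, which charge tRNAs with amino acids in the cytosol, 10 had a log2 fold change above 0 in females, with a median of 0.17. Cars (chr7:143557230-143600090), the cysteinyl enzyme, stood at 35.3, 39.2, 33.3 and 36.7 CPM in female WT and at 50.6, 48.0, 47.0 and 48.5 CPM in female LKO. The gap between the groups was wide compared with their spread, and the log2 fold change was 0.43 ± 0.065 (edgeR adjusted p 0.0526). Aars, the alanyl enzyme, stood at 121, 128, 117 and 117 CPM in female WT and at 157, 145, 144 and 144 CPM in female LKO, a log2 fold change of 0.29 ± 0.057 (edgeR adjusted p 0.124). Gars, the glycyl enzyme, stood at 123, 124, 121 and 123 CPM in female WT and at 158, 152, 135 and 145 CPM in female LKO, a log2 fold change of 0.27 ± 0.061 (edgeR adjusted p 0.189). In each of these the lowest LKO library exceeded the highest WT library.

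The other synthetases had smaller differences in females. Sars, the seryl enzyme, stood at 102, 103, 99.4 and 101 CPM in WT and at 126, 121, 111 and 114 CPM in LKO, a log2 fold change of 0.22 ± 0.058 (edgeR adjusted p 0.238). Yars, the tyrosyl enzyme, stood at 45.6, 47.4, 44.4 and 46.8 CPM in WT and at 62.4, 53.4, 48.6 and 55.7 CPM in LKO, a log2 fold change of 0.26 ± 0.076 (edgeR adjusted p 0.285). Neither gene overlapped between the genotypes. Tars, the threonyl enzyme, stood at 99.1, 99.0, 94.5 and 98.6 CPM in WT and at 117, 101, 102 and 118 CPM in LKO, a log2 fold change of 0.16 ± 0.066 (edgeR adjusted p 0.374). Lars, the leucyl enzyme, stood at 54.8, 57.2, 55.3 and 56.3 CPM in WT and at 61.4, 58.5, 63.8 and 57.7 CPM in LKO, a log2 fold change of 0.11 ± 0.057 (edgeR adjusted p 0.466). Both were separate by a narrow margin. Nars, the asparaginyl enzyme, stood at 279, 291, 286 and 289.6 CPM in WT and at 353, 299, 289.6 and 349 CPM in LKO, with overlap and a log2 fold change of 0.17 ± 0.072 (edgeR adjusted p 0.386). For Wars, Iars and Eprs the groups overlapped as well, with log2 fold changes between -0.01 and 0.11. In males no synthetase of the list had an unadjusted p below 0.05, every one overlapped between the genotypes, and their median log2 fold change was 0.04.

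Related synthetases outside the list were set beside them. Of 11 other cytosolic synthetases and subunits of their complex, 3 had an unadjusted p below 0.05 in females. All 3 were higher in LKO, where 4.95% of all genes were, and the median log2 fold change of the 11 was 0.10. These 3 were Vars, Rars and Farsa, with log2 fold changes of 0.17, 0.16 and 0.16. Of 17 mitochondrial synthetases, 1 had such a p, Sars2, also higher in LKO at 0.20, and the median of the 17 was 0.02. Mars, the methionyl enzyme, which is listed under another symbol, ranged from 51.1 to 60.2 CPM in female WT and from 64.0 to 75.0 CPM in female LKO, a log2 fold change of 0.39 ± 0.074 (edgeR adjusted p 0.104), and had one of 0.04 ± 0.079 in males.

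**Figure D3:**
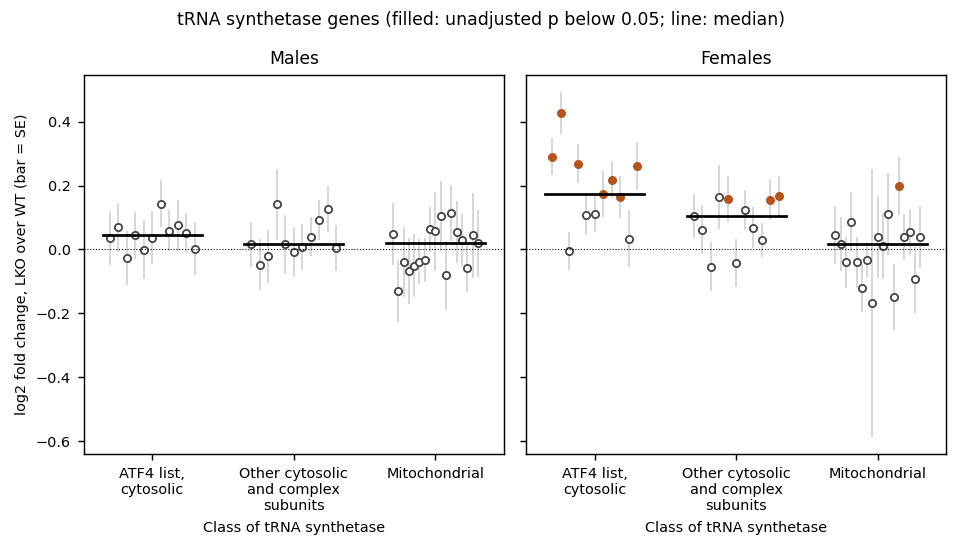
Log2 fold change of LKO over WT (y axis, bars are SE) for tRNA synthetase genes in males and females, in 3 classes: 11 cytosolic members of the ATF4 list, 11 other cytosolic synthetases and complex subunits, and 17 mitochondrial ones. Filled points have an unadjusted p below 0.05 and black lines are class medians; in females these were 0.17, 0.10 and 0.02, and in males no point is filled.

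Among the transcription factors and regulators, Atf4 mRNA stood between 206 and 292 CPM over the 16 libraries, with log2 fold changes of 0.05 ± 0.068 in males and -0.003 ± 0.093 in females. Atf5 (chr7:44812256-44816658), a related factor that is also translated under stress, stood at 24.1, 26.8, 18.97 and 23.9 CPM in female WT and at 40.4, 37.3, 29.5 and 32.5 CPM in female LKO. These did not overlap, and the log2 fold change was 0.58 ± 0.12 (edgeR adjusted p 0.149). In males it stood at 20.2 to 25.95 CPM in WT and 21.2 to 24.7 CPM in LKO, with a log2 fold change of 0.09 ± 0.098. The annotated Atf5 shares 571 bases with Nup62 and 289 with Gm21948 on the opposite strand; the counts behaved as strand-specific elsewhere, Xist averaging 457 CPM in females and its antisense partner Tsix 0.445 CPM.

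Nupr1 was separate between genotypes in males. It stood at 32.1, 42.3, 42.6 and 45.2 CPM in male WT and at 51.1, 59.7, 49.2 and 51.6 CPM in male LKO, without overlap, a log2 fold change of 0.39 ± 0.10 (edgeR adjusted p 0.306). In females, WT libraries stood between 51.8 and 65.7 CPM and LKO libraries between 49.4 and 66.8 CPM, with a log2 fold change of 0.04 ± 0.099. Male LKO overlapped the females in level, while male WT lay below all of them. Trib3, a pseudokinase that feeds back on ATF4, and Ddit3, which encodes the stress factor CHOP, overlapped between genotypes in both sexes, with log2 fold changes between -0.07 and 0.19. Cebpg, a dimer partner of ATF4, was within 0.04 of 0 in each sex.

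The genes that slow translation and growth were uneven. Eif4ebp1 (chr8:27260327-27275656), whose product binds the cap factor eIF4E and holds back translation, stood at 23.6, 23.5, 20.7 and 25.9 CPM in female WT and at 33.9, 43.8, 33.8 and 27.9 CPM in female LKO. These groups did not overlap, and the log2 fold change was 0.57 ± 0.12 (edgeR adjusted p 0.18). LKO replicate 2, the highest, was among the follicle-rich pieces, and without the 3 such female libraries the value was 0.35. In males Eif4ebp1 overlapped, with a log2 fold change of 0.12 ± 0.099. Ddit4 and Sesn2, which restrain mTORC1, had log2 fold changes between -0.09 and 0.23. Ppp1r15a, a phosphatase subunit that ends the response by dephosphorylating eIF2alpha, had one of 0.32 ± 0.15 in males and 0.07 ± 0.14 in females, with overlap in each case.

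Of the amino acid transporters, Slc7a5, the leucine exchanger, differed by a like amount in the sexes. In females it stood at 24.7, 23.1, 24.5 and 19.1 CPM in WT and at 28.0, 25.8, 37.9 and 31.1 CPM in LKO, without overlap, a log2 fold change of 0.43 ± 0.12 (edgeR adjusted p 0.285). In males it stood at 24.0, 19.1, 19.4 and 22.5 CPM in WT and at 22.7, 21.9, 32.3 and 35.1 CPM in LKO, with overlap, a log2 fold change of 0.40 ± 0.15 (edgeR adjusted p 0.869). The 2 high male LKO libraries carry the highest of the male title numbers, and with the title number as a covariate the male value was -0.02. In males the order of the numbers and genotype cannot be told apart. The share of all genes with an unadjusted p below 0.05 was 2.05% in that fit, in place of 5.29%. Its partner Slc3a2 and the arginine transporter Slc7a1 had log2 fold changes between 0.02 and 0.11. Slc7a11 was low and scattered, from 0.61 to 5.78 CPM over the libraries, with a log2 fold change of 0.71 ± 0.46 (edgeR adjusted p 0.558) in females. Slc7a3, below 1.28 CPM everywhere, had one of 0.42 ± 0.32.

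The receptor Vldlr stood between 6.46 and 10.3 CPM and the secreted glycoprotein Stc2 between 3.67 and 8.95 CPM over the 16 libraries. Neither had an unadjusted p below 0.05 for genotype in either sex. For Stc2 the log2 fold change was 0.08 ± 0.18 in males and 0.26 ± 0.17 in females.

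**Figure D4:**
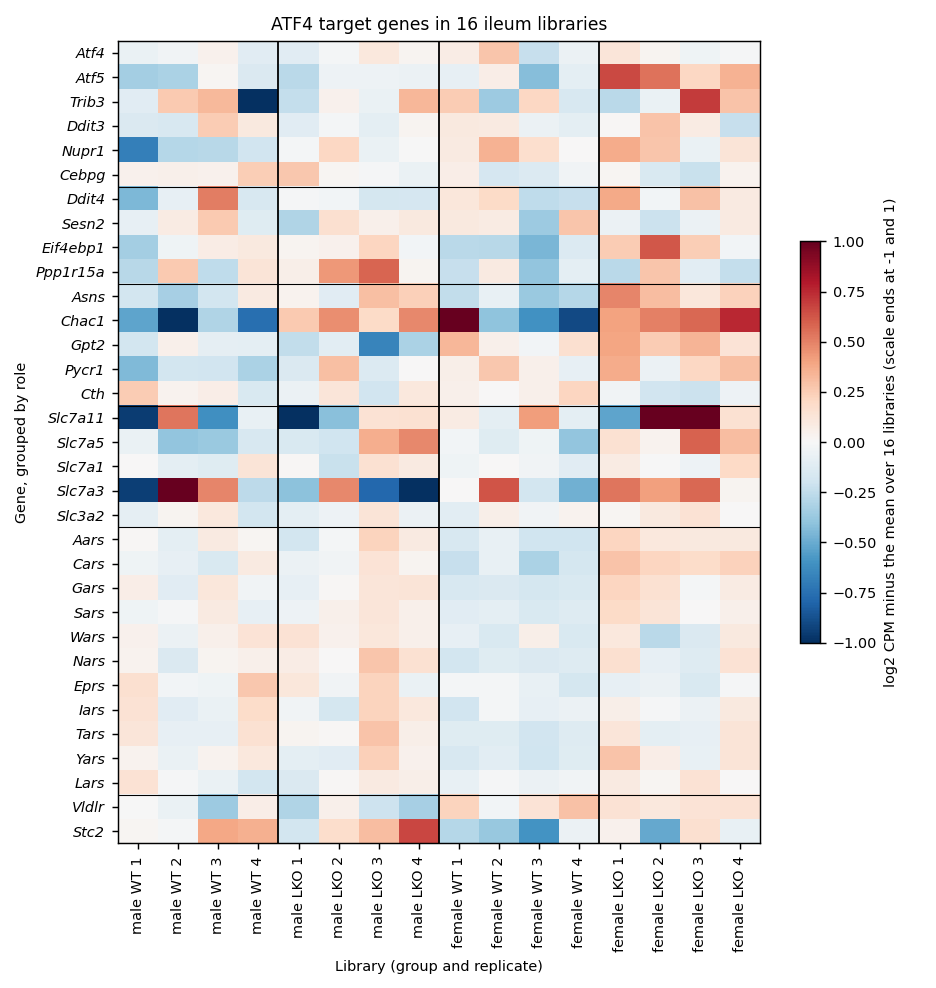
Log2 CPM of 33 members minus each member's mean over the 16 libraries (colour, red above and blue below, cut at -1 and 1), with libraries in columns by group and genes in rows by role. The synthetase rows are below their mean in nearly every female WT library, and the deepest colours are in Chac1, Slc7a11, Slc7a3 and Trib3, the tested members with the fewest counts.

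In males no tRNA synthetase was among the members with an unadjusted p below 0.05. No member passed edgeR's adjusted p, against 8 of all 15169 genes (0.0527%), while DESeq2 called 1, Chac1, against 63 of all 15169 genes. In edgeR, Chac1, Nupr1, Asns, Slc7a5 and Pycr1, 5 of 32 members, had an unadjusted p below 0.05. All 5 were higher in LKO, where 3.01% of all genes had such a p. None did in the lower direction, against 2.28% of all genes. In 3 members, Chac1, Pycr1 and Nupr1, the LKO libraries all lay above the WT libraries, against 1.66% of all genes, and in none below, against 1.32%. The median log2 fold change was 0.05 over the members, 22 of 32 being above 0, and 0.00 over all genes. Markers of Paneth cells, the secretory cells of the crypt base, moved with genotype in males: 7 of 8 had an unadjusted p below 0.05, and they summed to 12700 to 14900 CPM in male WT and 18200 to 22700 CPM in male LKO, with none of the 8 in females. Their part in the male values was not tested.

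In females, B-cell follicle markers summed to 29.5 to 80.9 CPM in WT and 33.1 to 418 CPM in LKO. None of the 7 follicle markers tested had an unadjusted p below 0.05, but their median log2 fold change was 1.98. The fit without the follicle-rich libraries kept female WT replicates 1, 2 and 4 and female LKO replicates 1 and 4. Without the follicle-rich libraries, 13 of 33 members had an unadjusted p below 0.05 in females, all higher in LKO, against 12 of which 11 were higher with them. Over all genes, in either direction, such a p was held by 6.56% without these libraries and by 11.7% with them. The log2 fold changes without them were 0.57 for Asns, 0.42 for Cars and 0.56 for Atf5. Plasma cell markers, from cells that secrete much protein, summed to 1760 to 2290 CPM in female WT and 1550 to 2460 CPM in female LKO. Of the 7 plasma cell markers, 2 had an unadjusted p below 0.05 in females, Mzb1 and Derl3, both higher in LKO with log2 fold changes of 0.40 ± 0.17 and 0.30 ± 0.13, and the median over the 7 was 0.30. Their part in the female values was not tested.

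**Figure D5:**
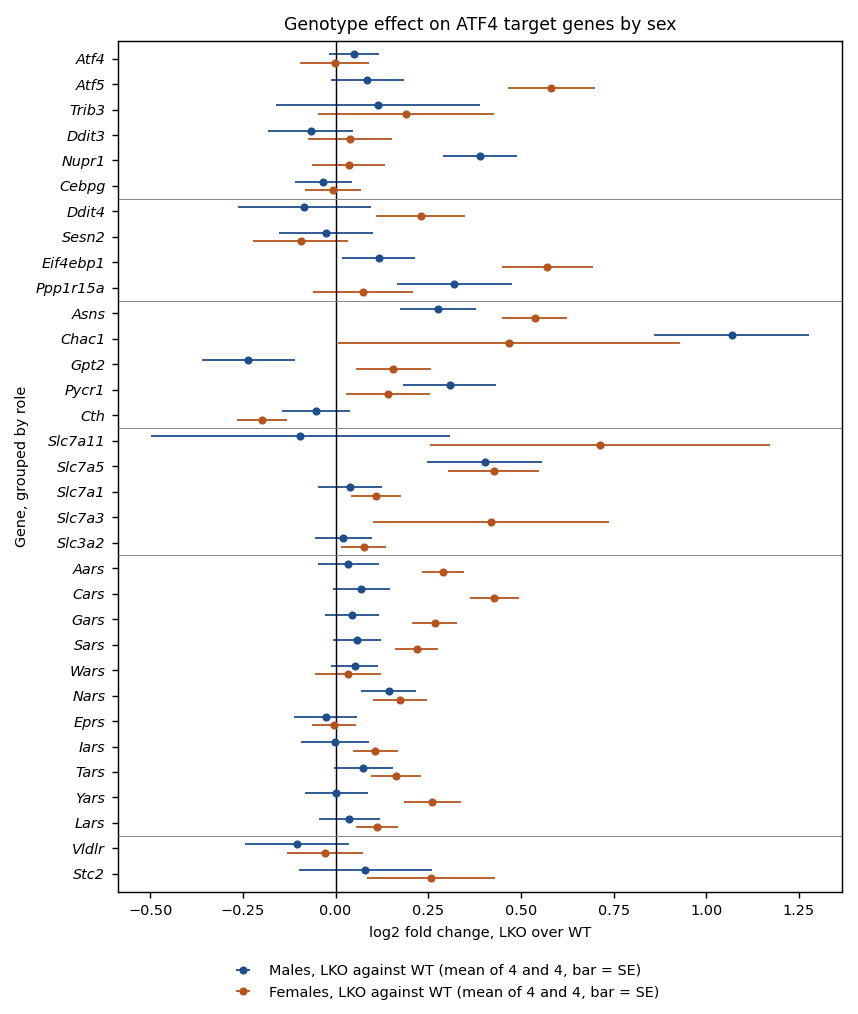
Log2 fold change of LKO over WT (x axis) for each member in males (blue) and females (orange), with SE bars, 4 libraries per group and genes grouped by role. In females 10 of the 11 synthetases, Asns, Atf5, Eif4ebp1 and Slc7a5 lie to the right of 0, in males Chac1, Slc7a5 and Nupr1 lie farthest right, and Slc7a3 was not tested in males.

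Over both sexes, 13 of 33 members (39.4%) had an unadjusted p below 0.05 and a higher value in LKO, against 4.67% of all genes, and 1, Cth, a lower value, against 6.57%. After Asns, the smallest adjusted p values by edgeR were 0.101 for Cars, with a log2 fold change of 0.25 ± 0.062, and 0.108 for Slc7a5, with one of 0.41 ± 0.10. Without the follicle-rich libraries 9 members had such a p in place of 14, and over all genes the share in either direction went from 11.2% to 7.37%. The same libraries enter the within-sex comparisons, so these counts are not separate evidence.

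Whether the genotype effect differed between the sexes was tested by an interaction term. No member passed edgeR's adjusted p, and neither did any other gene (0.0% of 15598); DESeq2 called 0 members too. At an unadjusted p below 0.05, 7 of 33 members (21.2%) had a lower effect in males than in females, where 3.05% of all genes did: Cars, Atf5, Eif4ebp1, Aars, Gars, Gpt2 and Yars. The male minus female difference in log2 fold change was -0.36 ± 0.097 for Cars and -0.50 ± 0.16 for Atf5, each with an edgeR adjusted p of 0.845. Nupr1 was the 1 member with a larger effect in males, a difference of 0.35 ± 0.15, where 2.58% of all genes were in that direction. Without female LKO replicate 1, the deepest library, 5 members had an unadjusted p below 0.05 in place of 8, while the share of all genes in either direction was 6.08% in place of 5.64%. With that library thinned, 8 members had such a p, where 5.73% of all genes did. Without male LKO replicate 1 or female WT replicate 3, 6 members did, where 4.84% and 4.4% of all genes did. Of 8 B-cell follicle markers, 6 also had a lower effect in males at that threshold, and without the follicle-rich libraries 8 members had such a p, where 2.62% of all genes did.

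The sexes were also compared within a genotype. In WT, no member passed edgeR's adjusted p, where 0.25% of all genes did. DESeq2 called 1 member, Nupr1, and 241 of all 15229 genes. Stc2, Yars, Aars, Tars, Gars, Eif4ebp1 and Cebpg were higher in males at an unadjusted p below 0.05, 7 of 33 against 6.21% of all genes, and Nupr1 and Pycr1 were lower, against 7.72%. All 11 synthetases had a log2 fold change of male over female above 0, with a median of 0.14. The 11 other cytosolic synthetases and complex subunits had a like median of 0.135, with 4 higher in males and 0 lower at an unadjusted p below 0.05. The 17 mitochondrial synthetases had a median of 0.09, and 0 had such a p. Among the members Nupr1 had the smallest p, with a log2 fold change of -0.52 ± 0.10 (edgeR adjusted p 0.0651). The counts of members leaned on single female WT libraries: 5 members had an unadjusted p below 0.05 without replicate 1 or without replicate 3, in place of 9, while the share of all genes was 10.1% and 13.6%, in place of 13.9%. Markers of other cells moved with sex in WT: all 8 Paneth cell markers were lower in males at an unadjusted p below 0.05, with a median log2 fold change of -0.68, as were 5 of 6 smooth muscle markers, with one of -0.34. Paneth markers summed to 12700 to 14900 CPM in male WT and 16700 to 23600 CPM in female WT, and smooth muscle markers to 3230 to 3590 and 3520 to 5420 CPM. Their part in the members' values was not tested.

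In LKO, no member passed edgeR's adjusted p, where 0.0984% of all genes did. DESeq2 called 2 of 33 members, Atf5 and Gpt2, and 1016 of all 15250 genes. Ppp1r15a was higher in males at an unadjusted p below 0.05, 1 of 33 against 10.9% of all genes. Atf5, Gpt2, Cars, Ddit4, Vldlr and Slc7a3 were lower in males, 6 of 33 (18.2%) against 11.7% of all genes. Atf5 had a log2 fold change of -0.56 ± 0.10 (edgeR adjusted p 0.0612), and Gpt2 one of -0.61 ± 0.12 (edgeR adjusted p 0.064), with every male LKO library below every female LKO library in both. Here too markers of other cells were lower in males at an unadjusted p below 0.05: 5 of 8 for Paneth cells, 5 of 6 for smooth muscle, 4 of 6 for neurons and glia and 5 of 6 tested for B-cell follicles. Follicle markers summed to 27.2 to 29.7 CPM in male LKO and 33.1 to 418 CPM in female LKO, and smooth muscle markers to 2760 to 3530 and 3710 to 5210 CPM. Without the follicle-rich libraries Atf5 had a log2 fold change of -0.63, and the part of the other markers was not tested.

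A mean per library was taken as a description, with no test. The mean log2 deviation of the 33 members from their own means was 0.11 to 0.15 in the 4 female LKO libraries and -0.14 to 0.00 in the 4 female WT libraries. In males it was -0.15 to -0.01 in WT, and -0.12, 0.03, 0.06 and 0.04 in LKO replicates 1 to 4. Male LKO replicate 1 thus lay within the male WT range. For the 11 synthetases alone, the 4 female WT libraries were the lowest of all 16, at -0.14 to -0.09, and male LKO replicate 3 was the highest at 0.19.

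Members with the C/EBP-ATF core were set beside those without it. In females the median log2 fold change was 0.23 over 12 tested members with the core, 0.08 over 13 whose windows lacked it and 0.30 over 8 not searched. In males these medians were 0.06, 0.02 and 0.07. The groups were not tested against each other.

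Other genes of the pathway, from lists grouped by function, were read in the same fits. All lists were chosen with earlier results of these data known, so their values do not serve as independent evidence. Of 7 serine and one-carbon enzymes that ATF4 controls, 4 had an unadjusted p below 0.05 in females, all higher in LKO where 4.95% of all genes were, and 1 passed edgeR's adjusted p, where 0.0392% of all genes did. Phgdh, the entry enzyme of serine synthesis, rose in females with a log2 fold change of 0.98 ± 0.13 (edgeR adjusted p 0.0277). This call held without female WT replicate 2 or female LKO replicate 2 and was lost without any of the other 6 female libraries, with adjusted p between 0.0341 and 0.121. Mthfd2 and Shmt2, which move one-carbon units from serine into mitochondrial folate, had log2 fold changes of 0.70 ± 0.11 and 0.37 ± 0.063. The 7 enzymes summed to 111 to 122 CPM in female WT and 148 to 170.0 CPM in female LKO, and in males none had an unadjusted p below 0.05.

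Of 20 other partners and targets tested, 2 were higher and 1 lower in females at an unadjusted p below 0.05, where 4.95% and 6.75% of all genes were, and 4 were higher in males, where 3.01% were. The glycine transporter Slc6a9 rose over both sexes with a log2 fold change of 0.35 ± 0.068 (edgeR adjusted p 0.0321). This call was lost in 10 of the 16 fits that left out 1 library (it held without male WT replicate 2, 3 or 4, male LKO replicate 1 or 3 or female WT replicate 2), with the title number as a covariate (0.182) or as sets (0.0957), and without the follicle-rich libraries (0.153). Sqstm1, an autophagy receptor, had log2 fold changes of 0.25 ± 0.064 in males and 0.19 ± 0.082 in females, and Vegfa, the vessel growth factor, one of 0.27 ± 0.075 in males.

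Lists from branches upstream of or beside ATF4 were read at the same threshold, against the shares of all genes given for the members above. A list around eIF2alpha held 7 genes: the kinase genes Eif2ak1 to Eif2ak4, the phosphatase subunit gene Ppp1r15b, Eif2s1, which encodes eIF2alpha, and Impact. None had an unadjusted p below 0.05 in males, and 1 did in females, Eif2ak2 (PKR) at -0.26 ± 0.096. A list of 22 genes of the ATF6 and XBP1 arms of the endoplasmic reticulum stress response held targets and the sensor genes Atf6, Ern1 and Ern2. It shared Derl3 with the plasma cell markers. Of the 22, 6 were higher and 2 lower in females at that threshold and 2 were higher in males, among them Sdf2l1 at 0.22 ± 0.075 and Manf at 0.22 ± 0.080 in females. The median log2 fold changes of the 22 were 0.06 in females and 0.02 in males. Of 14 genes of amino acid sensing by mTORC1, 4 were lower in females and 3 in males, with Rragd at -0.35 ± 0.10 in females and Sesn1 at -0.30 ± 0.10 and -0.28 ± 0.11 in females and males. Of 10 NRF2 targets, 2 were lower in females, Nqo1 and Gclm, and none had such a p in males; of 6 mitochondrial stress genes none did in either sex.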

How the data were processed

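RNA sequencing libraries were made by the authors with a stranded poly(A) kit and read as single ends of 100 bp. Per the submitters' processing notes they used STAR 2.5.2 on mm10 and HOMER 4.10, and the methods state that reads with 1 mapping position and at most 4 mismatches were kept. The values deposited are unnormalized read counts over the exons of 1 transcript for each gene, with no adjustment for library size. The strand option of the counting was not given in the sources used here.

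Groups and replicate numbers came from the sample titles. All genes were fitted together with edgeR 4.0.16 (R 4.3.3): filterByExpr, TMM scaling, robust quasi-likelihood F-tests and Benjamini-Hochberg adjustment over all genes tested, with a threshold of 0.05. DESeq2 1.42.0 was an alternative, beside other scalings, filters, dispersion fits, the replicate block, the title numbers, thinning of the deepest library and leaving out each library. A fit without the 4 libraries above 50 summed CPM of B-cell follicle markers was chosen after seeing the data. CPM values were scaled by TMM library sizes. Log2 deviations used a prior count of 2. The zero limit is 3 counts per library and covers counting error only. The fitting was tested on simulated data. With 4 samples per group, each p-value weighs a difference against the spread between these samples, estimated with information from all genes.

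Every member was named; for genotype within a sex, values in every library, fold change and p were given where the unadjusted p was below 0.05 or the groups did not overlap. The rule covered the sex, interaction and joint comparisons too, where values are printed for the members with the smallest p. Named were up to 3 genes per other list. The members and all lists were chosen with earlier results of these data known. Gcn1, Castor1, Castor2, Dele1 and Trbc2 were among the listed genes not found by symbol.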

Additional observations from a re-analysis of the deposited data

Results flagged for a closer look

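Of 135 sets of 4 libraries (a member in a group), 9 held a library whose gap to the next one was above Dixon's critical share of the range of the set, and chance gives about 1 in 20. Chac1 in female WT replicate 1, at 9.47 CPM, was far above the next library at 2.97 CPM. Atf5 in male LKO replicate 1 was low at 21.2 CPM (next 24.5), Nars in male WT replicate 2 at 286 CPM (next 322), Tars in female WT replicate 3 at 94.5 CPM (next 98.6) and Vldlr in female LKO replicate 2 at 8.97 CPM (next 9.21). Aars in female LKO replicate 1 was high at 157 CPM (next 145) and Cebpg in male WT replicate 4 at 140.0 CPM (next 123). Fgf21 was flagged at 0.0513 CPM in male WT replicate 4 and 0.0517 CPM in male LKO replicate 4, which is 1 count in each beside libraries at 0.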

How the results depend on the processing

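Members past an adjusted p of 0.05 numbered 0 in males, and 1 (Chac1) with DESeq2 and 1 with no filter on low counts. Over all genes, 63 of 15169 passed with DESeq2 and 25 of 19831 with no filter. In females they numbered 0, and 7 with DESeq2, 1 with upper-quartile scaling, 2 with no filter, 2 with the replicate block and 1 with the title number as a linear covariate. In the same order, 155, 7, 15, 15 and 6 of all genes passed, of 20149 tested with no filter and 15298 otherwise. Over both sexes the count of 1 became 4 with DESeq2 and 0 with the replicate block, either form of the title number or without the follicle-rich libraries. Over all genes, 224 of 15598 passed with DESeq2, 16 with the replicate block, 2 with the title number as a linear covariate and 0 with its sets. Without the follicle-rich libraries, 5 of 15780 passed. For the sex difference the count of 0 became 1 in WT with DESeq2 and 1 with no filter, and in LKO 2 with DESeq2, 2 with upper-quartile scaling, 2 with no filter and 1 without the follicle-rich libraries. Over all genes, 241 of 15229 and 71 of 19884 passed in WT. In LKO, 1016 of 15250, 78 of 15250, 139 of 20111 and 33 of 15523 passed, in the same order. Members with an unadjusted p below 0.05 went from 5 to 2 in males with the title number as a linear covariate, from 14 to 8 over both sexes with sets of title numbers and to 9 without the follicle-rich libraries, and from 9 to 5 for sex in WT with the replicate block. The share of all genes with such a p also fell, from 5.29% to 2.05% in males. It went from 11.2% to 7.17% and to 7.37% over both sexes, and from 13.9% to 11.7% for sex in WT. Slc7a5 in males turned to a log2 fold change of -0.015 with the title number as a linear covariate. The causes of these shifts were not tested.

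Leaving out each library in turn, the members past the adjusted p numbered 0 to 0 in males, females and the interaction, 0 to 2 over both sexes, 0 to 1 for sex in WT (1 without female WT replicate 4) and 0 to 2 for sex in LKO (2 without female LKO replicate 4, 1 without female LKO replicate 3 or male LKO replicate 2). Over all genes, 64 of 15357 passed for sex in WT without female WT replicate 4. For sex in LKO, 665 of 15340 passed without female LKO replicate 4, 9 of 15352 without female LKO replicate 3 and 63 of 15390 without male LKO replicate 2. Members with an unadjusted p below 0.05 numbered 3 to 6 in males (3 without male LKO replicate 3), 10 to 14 in females, 12 to 15 over both sexes, 5 to 9 for the interaction, 5 to 13 for sex in WT and 6 to 8 for sex in LKO. The share of all genes was 3.9% to 6.86% in males, 8.04% to 15.3% in females and 9.2% to 13.6% over both sexes. It was 4.0% to 9.35% for the interaction, 10.1% to 14.4% for sex in WT and 16.1% to 25.5% for sex in LKO. Over both sexes, Cars joined Asns without male WT replicate 4, and Chac1 passed without female WT replicate 1, where Asns did not. Of all genes, 102 of 15692 and 8 of 15720 passed in these fits. Of 1175 values of named members under an alternative, 1125 kept their direction and side of the threshold, 34 passed it, 15 lost it and 1 reversed. The 15 losses were all of Asns over both sexes, the only call of a member in a main fit. Most values that kept their side were thus uncalled in both fits, and a missing adjusted p was counted as kept.

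Replicate numbers in the titles did not pair the libraries: deviations of libraries with the same number correlated between -0.10 and 0.26 over 16 pairs, and in 4 of the 16 the number's own partner correlated best. With the replicate block Asns over both sexes had an adjusted p of 0.0649 (edgeR). Low counts limit Chac1, Trib3, Slc7a11, Slc7a3 and Fgf21.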
